A study of Bos taurus and Bos grunniens and Bubalus bubalis with 15 samples.

Results

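Cullins are the long scaffold proteins of the largest family of ubiquitin ligases, the enzymes that mark proteins for the proteasome. The probe sets described here are those whose gene symbol in the array's annotation is CUL1, CUL2, CUL3 or CUL5. They were 5 of the 24016 probe sets that are not controls, and they covered 3 of the 4 symbols, among 9155 symbols on the array. CUL1 (Entrez 407228) had 3 probe sets, called here by their mean intensity the brightest, the intermediate and the dimmest CUL1 probe set. CUL2 (Entrez 535219) and CUL5 (Entrez 510331) had 1 each, and the panels of the plot of intensities carry the probe set identifiers. CUL3 was not analysed here.

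A cullin ligase is built around the scaffold. Its one end holds a small RING protein, RBX1 or RNF7, that recruits the ubiquitin-conjugating enzyme, and its other end holds an adaptor and a receptor that selects the protein to be marked. CUL1 takes SKP1 and an F-box protein, CUL2 and CUL5 take the elongins B and C with a receptor that carries a VHL box or a SOCS box, and CUL3 binds BTB proteins directly. Attachment of the ubiquitin-like protein NEDD8 switches the scaffold on, the COP9 signalosome removes it again, and CAND proteins exchange the receptors. In skeletal muscle CUL1 is best known as the scaffold of the FBXO32 (atrogin-1) ligase of muscle wasting.

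The samples were pieces of longissimus dorsi, a long back muscle, from 15 animals killed at 36 months of age, 1 array each. Qinchuan cattle gave 3 intact males, 3 castrated males and 3 females, which were born within 1 month of each other and shared their rearing and, broadly, their genetic background. The other groups were 3 Qinghai yak and 3 Guangxi buffalo, with no sex given in the sources used here. All animals of a group carry the label of biological replicates, and no group was treated other than by castration.

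Values are hybridisation intensities on a linear scale, and differences are log2 fold changes of intensity + 16 with their SE from limma. A difference is called when its adjusted p over the 14409 probe sets tested is below 0.05. Intensities of different probe sets depend on the probes and are not compared with each other. In whole muscle, fewer cells of a type and less RNA per cell cannot be told apart. The array is made from cattle sequence, so in yak and buffalo a difference in RNA and a difference in how the RNA binds the probes cannot be told apart. With no sex or castration state known for the yak and buffalo, these cannot be told apart from species either. Breed and place of origin also go together with species. The genes were selected on measured values of these arrays, and which contrast was used is not recorded, so the cullin values are given as a description. Calls among them are set beside the share of all probe sets called and nothing is read from them. All 5 cullin probe sets were tested, and each lay above the filter on all 15 arrays, the lowest value being 96.7 (6.82 on the log2 scale against a filter at 6.42).

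The arrays had median log2 values between 6.71 and 6.81, and there is no read depth, so the number of arrays limits the precision. Arrays of the same group correlated at 0.915 to 0.985 and arrays of different groups at 0.769 to 0.971. The summed intensity of 11 of 14 skeletal muscle markers was 116000 to 142200 in cattle, 120600 to 132500 in yak and 122500 to 129800 in buffalo, and 0 of the 11 were called in any contrast among cattle groups (0, 1 and 1 of them had an unadjusted p below 0.05 in castrated minus intact, female minus intact and female minus castrated). In the same order 1.46%, 5.50% and 0.0208% of all probe sets were called, and nothing is read from the unadjusted counts. Between species the muscle markers did differ. In yak minus cattle 0 were called higher and 3 lower. The counts were 3 and 5 in buffalo minus cattle, and 4 and 6 in buffalo minus yak. The shares of all probe sets called in these contrasts were 29.1%, 51.4% and 42.2%. Intact male 1 stood apart in its macrophage marker sum of 22340, against 757 to 5660 on the other arrays, and had the highest actin and GAPDH 3' to 5' ratios of the 9 cattle, 1.48 and 1.34.

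CUL5, the scaffold that works with elongins, RNF7 and SOCS-box receptors, had the clearest separation among the cattle. Its intensity was 96.7, 129 and 120 in intact males 1, 2 and 3. In the castrated males it was 276, 265 and 295. In the females it was 301, 261 and 282. Every intact male lay below every other cattle array, while castrated males and females covered the same range. Intact males had a group mean of 115 ± 16.5 (SD, n = 3), castrated males one of 279 ± 15.3 and females one of 281 ± 19.9. On the log2 scale castrated males were higher than intact males by 1.17 ± 0.12 (SE), a fold of 2.26, and females by 1.19 ± 0.12, a fold of 2.28. These contrasts share the intact males. Females and castrated males differed by 0.01 ± 0.12. Without intact male 1, the array with the lowest CUL5 value, the differences from intact males were 1.07 in castrated males and 1.08 in females.

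CUL1, the scaffold of the F-box ligases, was lowest in the intact males on all 3 of its probe sets, but the size of the difference depended on the probe set. On the dimmest CUL1 probe set the intact males had 172, 131 and 147. The castrated males had 464, 352 and 315, and the females 285, 250 and 246. The groups formed 3 separate steps here, with the females between intact and castrated males. The log2 difference from intact males was 1.24 ± 0.16 in castrated males, a fold of 2.35, and 0.74 ± 0.16 in females, a fold of 1.67. Females were lower than castrated males by -0.49 ± 0.16 with no overlap.

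The other CUL1 probe sets showed a smaller step and no gap between castrated males and females. On the brightest CUL1 probe set the intact males had 557, 635 and 582. The castrated males had 880, 779 and 751, and the females 775, 789 and 771. Castrated males and females overlapped, and both lay above the intact males, by 0.43 ± 0.13 and 0.39 ± 0.13 on the log2 scale. On the intermediate CUL1 probe set the intact males had 208, 279 and 259, the castrated males 399, 314 and 319, and the females 308, 303 and 340. There too no intact male reached the other cattle, and the differences were 0.44 ± 0.15 and 0.34 ± 0.15.

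CUL2, the scaffold best known for the VHL ligase of oxygen sensing, followed another order. Its intensity was 274, 385 and 398 in intact males. In castrated males it was 370, 384 and 408. In females it was 550, 468 and 481. The females lay above all other cattle, and intact and castrated males overlapped. Females differed from intact males by 0.50 ± 0.16 and from castrated males by 0.35 ± 0.16, and castrated from intact males by 0.15 ± 0.16. The last value rested on intact male 1: without it the difference was -0.018, and that of females from intact males was 0.33.

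**Figure D1:**
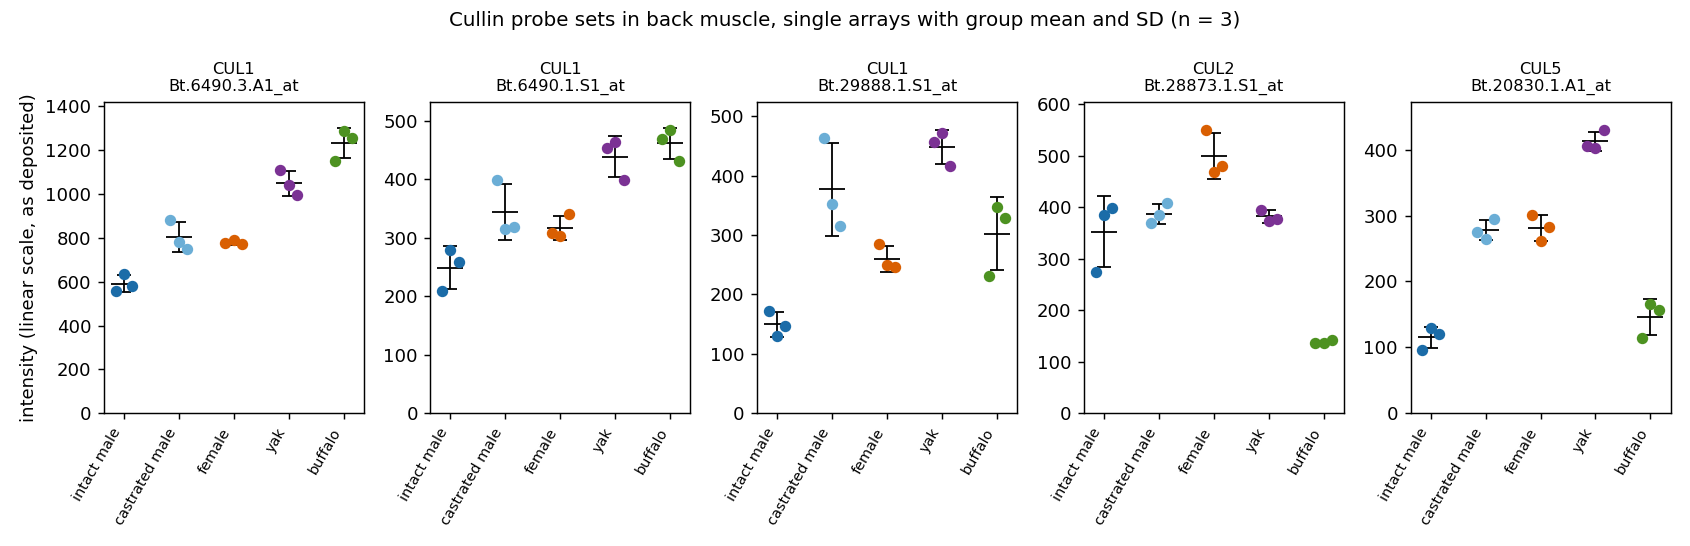
Intensity (linear scale, each axis starting at 0) of the 5 cullin probe sets on the 15 arrays, with the CUL1 panels from the brightest to the dimmest probe set; points are single animals and bars the group mean and SD (n = 3). CUL5 and the 3 CUL1 probe sets are lowest among cattle in the intact males, CUL2 is highest in the females, and in buffalo CUL2 (136 to 141) and CUL5 (115 to 166) lie below most other arrays while 2 CUL1 probe sets are at their highest mean.

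Of the 5 cullin probe sets, 2 were called in castrated minus intact male, CUL5 and the dimmest CUL1 probe set, both higher, where 1.46% of all probe sets were called and 0.625% were called higher. The same pair was called in female minus intact male, where 5.50% were called and 2.12% were called higher. The groups did not overlap for 4 of 5 in the castrated minus intact comparison, against 24.8% of all probe sets, and for 5 of 5 in the female minus intact comparison, against 33.1%. The intact males held the 3 lowest values among the 9 cattle for 4 of the 5, which was so for 6.69% of all probe sets. As 3 of the 5 probe sets read the same gene, CUL1, these are not counts of separate genes. In female minus castrated male limma called 0 of 5, where it called 0.0208% of all, 1 of the 5 had an unadjusted p below 0.05 (7.55% of all did), and 2 of 5 did not overlap (17.5% of all). The median log2 fold changes of the 5 in these contrasts, in that order, were 0.44, 0.50 and -0.04, against 0, 0.01 and 0.00 over all probe sets. The call of CUL5 held in every alternative tried, including the fits without each array in turn. Such refits use the values on which the genes were selected, so they add no support. The call of the dimmest CUL1 probe set against intact males was lost without intact male 2 in both contrasts, and in the female contrast also without any of the 3 females, although its log2 difference stayed between 1.08 and 1.35 in castrated males and between 0.66 and 0.84 in females.

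Matrix and macrophage markers moved with the same split. Sums of endothelial, smooth muscle and pericyte, and adipocyte markers overlapped between intact males and the other cattle. So did those of T, B and NK cell markers and of blood and nerve markers. The 10 matrix and fibroblast markers summed to 32870 to 44190 in the intact males. The castrated males had sums of 11630 to 12390, and the females of 8853 to 10770. Of the 9 tested, 7 were called lower in castrated than in intact males and 8 lower in females than in intact males. The shares of all probe sets called in these contrasts were 1.46% and 5.50%. The 8 of 10 macrophage markers measured summed to 3913 to 22340, 1215 to 2420 and 943 to 1315 in the same groups, with 0 of 8 called in the castrated contrast (8 had an unadjusted p below 0.05) and 5 of 8 called lower in the female contrast. The share of all probe sets with an unadjusted p below 0.05 is not given for that contrast, so nothing is read from the 8. No matrix or macrophage marker was at 0 on any array. Their part in the cullin differences was not tested.

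In yak CUL5 and CUL1 were higher than in cattle. CUL5 read 405, 403 and 429 in yak, above all other 12 arrays, with a mean of 413 ± 14.6. The log2 difference from cattle, taken as the mean of the 3 cattle groups, was 0.93 ± 0.11, and without the intact males it was 0.54. CUL1 read 1107, 1041 and 996 on the brightest CUL1 probe set, also above every cattle array, by 0.54 ± 0.09 on the log2 scale. On the intermediate CUL1 probe set it read 453, 464 and 399, higher by 0.53 ± 0.11. On the dimmest CUL1 probe set it read 457, 473 and 417, higher by 0.84 ± 0.14, and this range overlapped that of the castrated males. CUL2 read 395, 373 and 378, inside the cattle range, with a difference of -0.09 ± 0.11. Thus 4 of 5 were called, all higher, where 29.1% of all probe sets were called and 13.2% were called higher, and 3 of 5 did not overlap with cattle, against 19.3%. On the intermediate CUL1 probe set that gap was negligible, as yak 3 and castrated male 1 both read 399.

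In buffalo the scaffolds went different ways. CUL2 read 137, 136 and 141, with a mean of 138 ± 2.81, so the buffalo held the 3 lowest values of the 15 arrays. The log2 difference from cattle was -1.45 ± 0.11, which puts cattle 2.74-fold higher, and the difference from yak was -1.37 ± 0.13. CUL5 read 115, 166 and 157 in buffalo, below all castrated males, females and yak and overlapping the intact males. Its difference was -0.49 ± 0.11 from all cattle, -0.88 from cattle without the intact males and -1.42 ± 0.13 from yak.

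CUL1 in buffalo was read differently by its probe sets. The brightest CUL1 probe set read 1152, 1286 and 1256, the 3 highest values of the 15 arrays, with a log2 difference of 0.77 ± 0.09 from cattle and 0.23 ± 0.11 from yak. The intermediate CUL1 probe set read 469, 484 and 432, higher than cattle by 0.60 ± 0.11 and 0.07 ± 0.13 from yak, with overlap in the latter. The dimmest CUL1 probe set read 232, 348 and 329, overlapping the cattle, with a difference of 0.27 ± 0.14. That value came to -0.06 when the intact males were left out of the cattle. Against yak this probe set was lower, by -0.56 ± 0.17 and with no overlap.

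In buffalo minus cattle 2 of 5 were called higher and 2 lower, where 51.4% of all probe sets were called, 23.0% higher and 28.4% lower; 3 of 5 did not overlap, against 32.0%. In buffalo minus yak 3 of 5 were called, all lower, where 42.2% were called and 22.7% were called lower, and 4 of 5 did not overlap, against 55.2%. The 3 species contrasts share arrays. Their median log2 fold changes over the 5 were 0.54 in yak minus cattle, 0.27 in buffalo minus cattle and -0.56 in buffalo minus yak, against -0.03, -0.03 and 0.01 over all probe sets. Actin 3' to 5' ratios also moved with species, at 1.17 to 1.48 in cattle, 1.49 to 1.93 in yak and 1.42 to 1.73 in buffalo, and GAPDH ratios were 1.13 to 1.34, 1.20 to 1.26 and 1.22 to 1.5. The matrix and fibroblast markers summed to 4874 to 6192 in yak and 4020 to 6418 in buffalo, below every cattle array, and 8 of the 9 tested were called lower than in cattle in each species. The macrophage markers summed to 1001 to 1085 and 757 to 1130, with 2 and 3 of 8 called lower. Against cattle 29.1% of all probe sets were called in yak and 51.4% in buffalo. The part of these ratios and markers in the species differences was not tested.

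**Figure D2:**
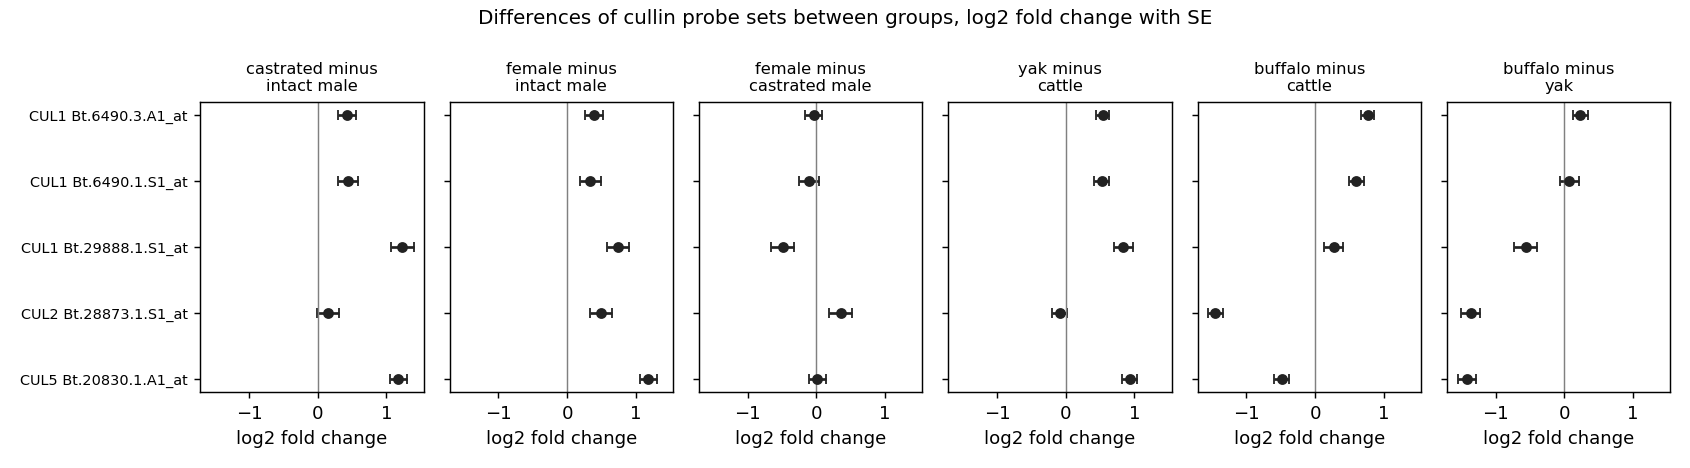
Log2 fold change with SE (horizontal axis, difference on the log2(intensity + 16) scale) of each cullin probe set in the 6 contrasts; the vertical line is no difference. CUL5 and the dimmest CUL1 probe set stand above 1 in castrated minus intact male, and in buffalo minus cattle CUL2 lies at -1.45 while the brightest CUL1 probe set lies at 0.77.

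Ordered by mean intensity, CUL5 ran from yak (413) through females (281), castrated males (279) and buffalo (146) to intact males (115). Females and castrated males overlapped, as did buffalo and intact males, and the other steps, of 1.47-fold from yak to females and 1.91-fold from castrated males to buffalo, had no overlap. CUL2 ran from females (499) through castrated males (387), yak (382) and intact males (353) to buffalo (138). Only the first step, 1.29-fold, and the last, 2.55-fold, had no overlap. CUL1 on its brightest probe set ran from buffalo (1232) through yak (1048), castrated males (803) and females (778) to intact males (591), with overlap at the step from castrated males to females alone. On the intermediate CUL1 probe set the order of the groups was the same. The last step, 1.27-fold, had no overlap, and neither, by less than 1 intensity unit, had that of 1.28-fold from yak to castrated males. On the dimmest CUL1 probe set yak (449), castrated males (377), buffalo (303) and females (260) each overlapped with the next, and the step from females to intact males (150) was 1.74-fold with no overlap.

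Over the 9 cattle arrays the log2 values of the 3 CUL1 probe sets correlated at 0.78 to 0.93 (Pearson's r), and the brightest CUL1 probe set and CUL5 at 0.94. Over all 15 arrays the latter fell to 0.30, and r between the brightest CUL1 probe set and CUL2 went from 0.55 in cattle to -0.60. CUL2 and CUL5 correlated at 0.69 in cattle and 0.55 over all. These values share arrays and the split between groups and describe these animals only.

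Among 7138 other genes, those whose log2 values followed the brightest CUL1 probe set most closely over the 9 cattle were PPP1R16B (r = 0.99), METAP1, PYGO2, USP2 and PHF3 (0.95 to 0.96). For CUL5 they were METAP1, ARFGEF1, PLAA, PARK7 and CDC16 (0.96 to 0.97). METAP1, a methionine aminopeptidase, stood in both lists, and the brightest CUL1 probe set and CUL5 themselves correlated at 0.94 in cattle. For CUL2 the closest genes were RNF128, GUCD1, UBE2G1, BRD8 and EXOC3 (0.96 to 0.97). RNF128 is a ubiquitin ligase outside the cullin family and UBE2G1 a ubiquitin-conjugating enzyme that works with cullin ligases. Over all 15 arrays the lists were AMBRA1, PPP3CC, EDC4, EXOSC8 and NGDN for CUL1 (0.92 to 0.93), SUMF2, TCF25, MDP1, STAC3 and STIM1 for CUL2 (0.97 to 0.98), and CPSF4, ARFGEF1, MAX, ZNF582 and AFTPH for CUL5 (0.90 to 0.94). AMBRA1 is a substrate receptor of CUL4 ligases, and ARFGEF1 was the only gene in the cattle list and the 15-array list of the same cullin. All these genes were picked for the highest r among 7138, and a link in function was not tested.

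The remaining measured cullin was CUL7, a scaffold that pairs with FBXW8. Its brightest probe set averaged 164 ± 26.3 (intact males), 147 ± 10.9 (castrated males), 143 ± 5.89 (females), 139 ± 11.4 (yak) and 142 ± 5.25 (buffalo), and it was called in 0 of 6 contrasts, with unadjusted p from 0.187 to 0.792 in limma. Its other tested probe set rose in buffalo against cattle (0.59 ± 0.08, limma adjusted p = 5.09e-05) and in yak (0.29 ± 0.08, adjusted p = 0.0175), and the gene's probe sets thus disagree. CUL4A, CUL4B and CUL9 were not analysed here.

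The partners and receptors are other genes than those the rule names, and each is read from its brightest probe set. CUL7 is counted with them here. Of the 93 genes tested, limma called 0 in castrated minus intact male, where 20 had an unadjusted p below 0.05. In female minus castrated male it called 0, and 4 had such an unadjusted p. The shares of all probe sets called were 1.46% and 0.0208%. An unadjusted p below 0.05 was held by 7.55% of all in female minus castrated male. That share is not given here for castrated minus intact male, so nothing is read from the 20. In female minus intact male 4 were higher and 3 lower, or 7.53%. In yak minus cattle 17 were higher and 6 lower (24.7%), in buffalo minus cattle 14 and 33 (50.5%), and in buffalo minus yak 11 and 30 (44.1%). The matching shares of all probe sets in these last contrasts, 5.50%, 29.1%, 51.4% and 42.2%, were close to those of the partners.

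The RING subunit RNF7, the usual partner of CUL5, averaged 672 ± 197 for intact, 760 ± 109 for castrated and 847 ± 125 for female cattle, and 1027 ± 195 for yak and 1009 ± 54.3 for buffalo. No contrast of RNF7 was called. The nearest was buffalo minus cattle (0.43 ± 0.18, limma adjusted p = 0.0542). Elongin C (ELOC), the adaptor of CUL2 and CUL5, was higher in yak than in cattle by 0.36 ± 0.12 (adjusted p = 0.0367), with overlapping ranges. RBX1, SKP1 and ELOB were not analysed here.

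Of 6 NEDD8 conjugation genes tested, 0 were called among cattle (1, 1 and 0 had an unadjusted p below 0.05). The shares of all probe sets called in these contrasts were 1.46%, 5.50% and 0.0208%. The share with an unadjusted p below 0.05 is not given here against intact males, so nothing is read from those counts. DCUN1D1, which helps NEDD8 onto cullins, read 194, 426 and 368 in intact males. It read 469, 582 and 613 in castrated males and 1070, 575 and 662 in females, with no overlap against intact males. The differences were 0.79 ± 0.31 (limma adjusted p = 0.198) and 1.20 ± 0.31 (adjusted p = 0.0546) and did not pass. In yak DCUN1D1 rose to 1063 ± 81.9, by 1.05 ± 0.25 over cattle (adjusted p = 0.00763), and in buffalo it was below yak by -1.14 ± 0.31 (adjusted p = 0.00908).

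Of the enzymes that activate and conjugate NEDD8, UBA3 and UBE2F were called in buffalo against cattle. UBA3, the catalytic subunit of the activating enzyme, rose by 0.66 ± 0.18 over cattle (adjusted p = 0.00832). UBE2F, the conjugating enzyme that serves CUL5, fell by 0.50 ± 0.12 (adjusted p = 0.00351). NAE1, the other subunit, had 0.32 ± 0.13 in buffalo (adjusted p = 0.0525) and rose by 0.38 ± 0.13 in yak (adjusted p = 0.045), a call lost in 14 of 20 alternatives. Its other probe set had -0.32 in buffalo (adjusted p = 0.0911) and 0.36 in yak (adjusted p = 0.0856). NEDD8 itself passed in no contrast, with differences from -0.21 to -0.01, the lowest limma adjusted p being 0.105. UBE2M was not analysed here.

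COPS5 and COPS9 of the COP9 signalosome fell in buffalo. COPS5, the catalytic subunit, read 1277, 1325 and 1365 in buffalo against 1780 to 2341 in cattle, a fall of 0.65 ± 0.09 (adjusted p = 4.2e-05). COPS9, a small regulatory subunit, read 2068, 1592 and 1812 against 3598 to 4560, a fall of 1.17 ± 0.09 (adjusted p = 3.51e-07). No buffalo array reached the cattle for either gene. With COPS4 (-0.35, adjusted p = 0.0452, lost in 10 of 20 alternatives) 3 of 8 subunits fell and 0 rose against cattle, and 5 did not pass. Over all probe sets 28.4% were called lower and 23.0% higher in that contrast. Against yak 5 of 8 fell and 0 rose, COPS3 (-0.78) and GPS1 (-0.66) among them, where 22.7% of all probe sets were called lower. In yak COPS3 (0.70) and COPS6 (0.43) rose and COPS8 (-0.44) fell against cattle, where 29.1% of all probe sets were called. Among cattle 0 of 8 were called. The shares of all probe sets called were 1.46% (castrated minus intact), 5.50% (female minus intact) and 0.0208% (female minus castrated). In that order 0, 2 and 0 had an unadjusted p below 0.05 in limma. That share over all probe sets is not given here against intact males, so nothing is read from the 2.

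Of the exchange factors, CAND1 fell in females against intact males. It read 275, 204 and 142 in intact males and 95.4, 95.6 and 110 in females, a difference of -0.90 ± 0.21 (adjusted p = 0.0409). Its other probe set gave -0.80 (adjusted p = 0.0406). CAND2, the form known from striated muscle, fell in buffalo to 563 ± 38.5 from 1307 ± 341 in cattle (-1.14 ± 0.18, adjusted p = 0.000195). Intact male 1, at 575, lay within the buffalo range of 519 to 587.

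**Figure D3:**
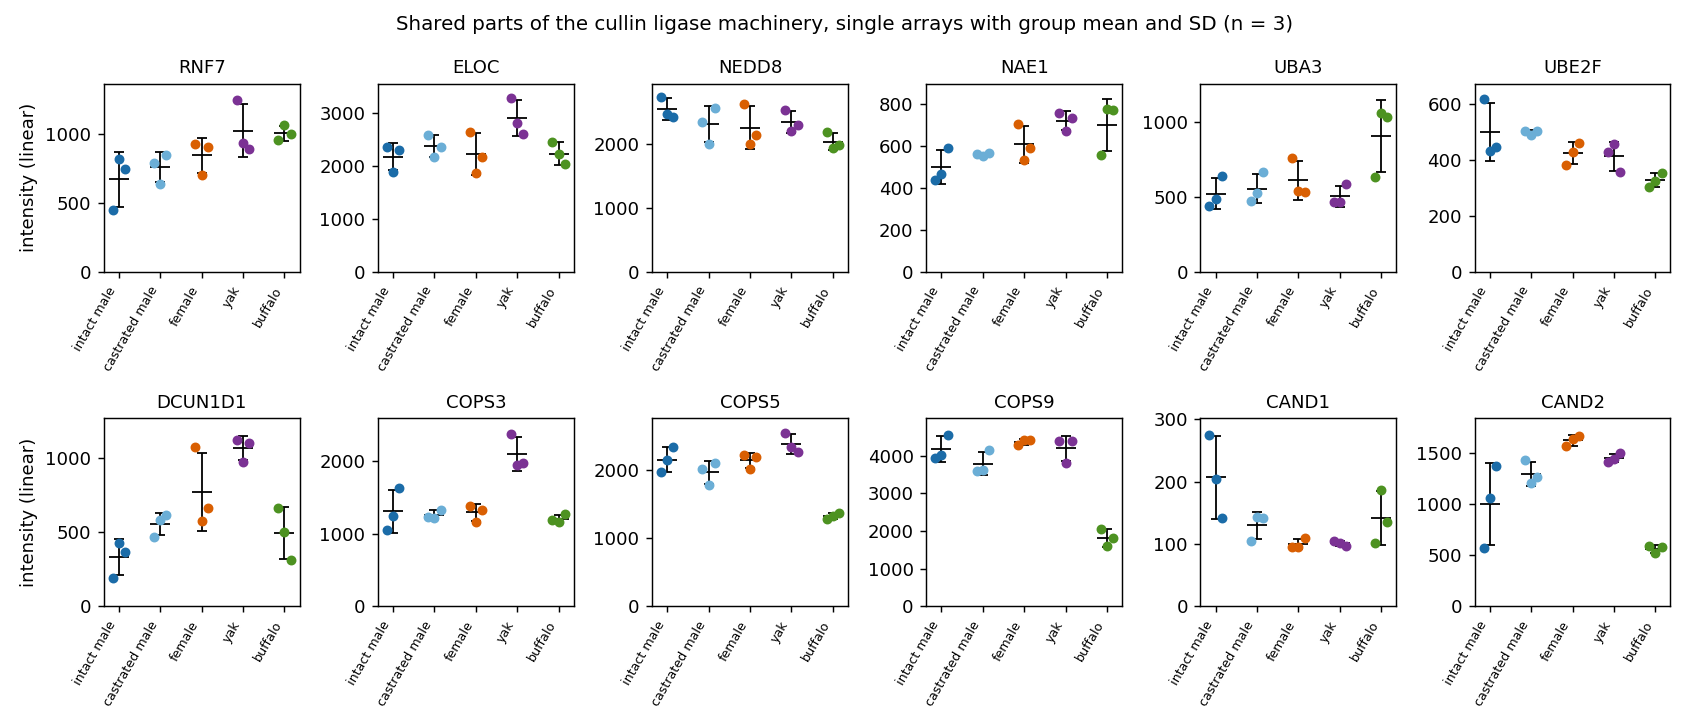
Intensity (linear scale, each axis starting at 0) of 12 shared parts of the cullin ligase machinery on the 15 arrays; points are single animals and bars the group mean and SD (n = 3). COPS5, COPS9 and CAND2 are low in buffalo, COPS3 is high in yak, and CAND1 spreads from 142 to 275 in intact males against 95.4 to 110 in females.

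Among receptors, the F-box genes FBXO32 and FBXO40, both known from muscle, were higher in females than in intact males, which earlier results of these data had already shown. FBXO32 read 891, 2529 and 1442 in intact males against 3281, 4400 and 6129 in females (1.58 ± 0.34, adjusted p = 0.0365), and its other probe set had 1.56 and did not pass (adjusted p = 0.0562). FBXO40 read 27.2, 50.2 and 74.6 against 121, 246 and 273 (1.78 ± 0.35, adjusted p = 0.0286). They were the only 2 of 26 F-box genes called, both higher, where 5.50% of all probe sets were called and 2.12% were called higher. Among the others the CUL2 receptor ZYG11B (0.91, adjusted p = 0.0365) and the CUL3 receptor KLHL25 (1.01, adjusted p = 0.0266) rose. The CUL3 receptor ENC1 (-1.26, adjusted p = 0.0365) and the SOCS-box gene WSB1 (-0.98, adjusted p = 0.0406) fell. Each of these calls, and that of CAND1, was lost in 4 or 5 of the 6 fits without an array: 2 partner genes were called without intact male 1, 1 without intact male 2, 19 without intact male 3, and 2, 0 and 0 without females 1, 2 and 3.

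In yak 5 of 26 F-box genes rose and 2 fell against cattle, where 29.1% of all probe sets were called and 13.2% were called higher. The same shares apply to the other lists here. Among them FBXL20 rose by 1.05 (adjusted p = 5.41e-05, with 0.54 and 0.20 on its other probe sets), FBXO7 by 0.79, FBXO11 by 0.54 and FBXL8 by 0.52. FBXO11 exceeded the filter only with the yak arrays counted. The other probe sets of FBXO7 had 0.23 and 0.02. Of 21 SOCS-box genes 5 rose and 0 fell, with PCMTD2 at 1.62 (2389 ± 750 in yak against 571 to 871 as cattle group means, adjusted p = 0.000206), SPSB3 at 0.99, ASB8 at 0.75 and ASB3 at 0.68. Of 6 CUL2 receptors ZYG11B (0.53) and KLHDC2 (0.37) rose. Of 21 BTB genes 0 rose and 3 fell, ENC1 (-0.89), IVNS1ABP (-0.85) and KLHL28 (-0.62).

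In buffalo F-box and SOCS-box genes were called in both directions against cattle, where 23.0% of all probe sets were called higher and 28.4% lower. Of 26 F-box genes 4 rose and 12 fell, with FBXW11, a beta-TrCP protein, at -1.69 (137 ± 6.13 in buffalo, adjusted p = 2.98e-06), FBXW7 at 1.31, FBXO15 at 0.94 and FBXL8 at -0.79. The other FBXO15 probe set went the opposite way, at -1.31. Of 21 SOCS-box genes 4 rose and 8 fell. ASB15, a gene of skeletal muscle, had the lowest value of those named, -3.01 ± 0.30 (45.6 to 57.3 in buffalo against 220 to 1154 in cattle, adjusted p = 2.96e-06), followed by WSB2 (-1.64, adjusted p = 1.75e-07) and ASB3 (-1.62), while ASB8 had 0.69 and -0.06 on its other probe set.

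Of 6 CUL2 receptors 0 rose and 2 fell in buffalo against cattle, KLHDC3 (-0.79) and FEM1C (-0.75). The other FEM1C probe sets disagreed, one being higher by 2.66 (adjusted p = 3.4e-09) and one having -0.41 (adjusted p = 0.0594). Of 21 BTB genes of CUL3 5 rose and 6 fell. For both lists the shares of all probe sets were 23.0% called higher and 28.4% lower. KEAP1, the receptor that controls the antioxidant factor NFE2L2, had -2.05 (adjusted p = 5.07e-06) on its brightest probe set, -1.97 (adjusted p = 4.02e-06) on another and -0.13 (adjusted p = 0.509) on the third. IVNS1ABP (-1.19) and KCTD10 (-1.14) fell, and KLHL28 rose by 1.07.

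Against yak, buffalo had 9 F-box genes lower and 4 higher, where 42.2% of all probe sets were called and 22.7% were called lower. The lower ones included FBXW11 at -1.70, FBXL20 at -1.56 (-0.07 and -0.21 on its other probe sets), FBXL8 at -1.31 and FBXO11 at -1.02. For FBXO11 the filter was passed only with the yak arrays counted. The same shares apply to the other lists here. Of the SOCS-box genes 8 were lower and 2 higher, with ASB15 at -2.92, ASB3 at -2.30, SPSB3 at -1.80 and WSB2 at -1.47, the last having -0.28 on another probe set. Both CUL2 receptors called, ZYG11B (-0.56) and KLHDC2 (-0.45), were lower, and 4 BTB genes were lower and 4 higher, with KEAP1 at -2.04 (-2.23 and -0.24 on its other probe sets) and KLHL28 at 1.70.

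**Figure D4:**
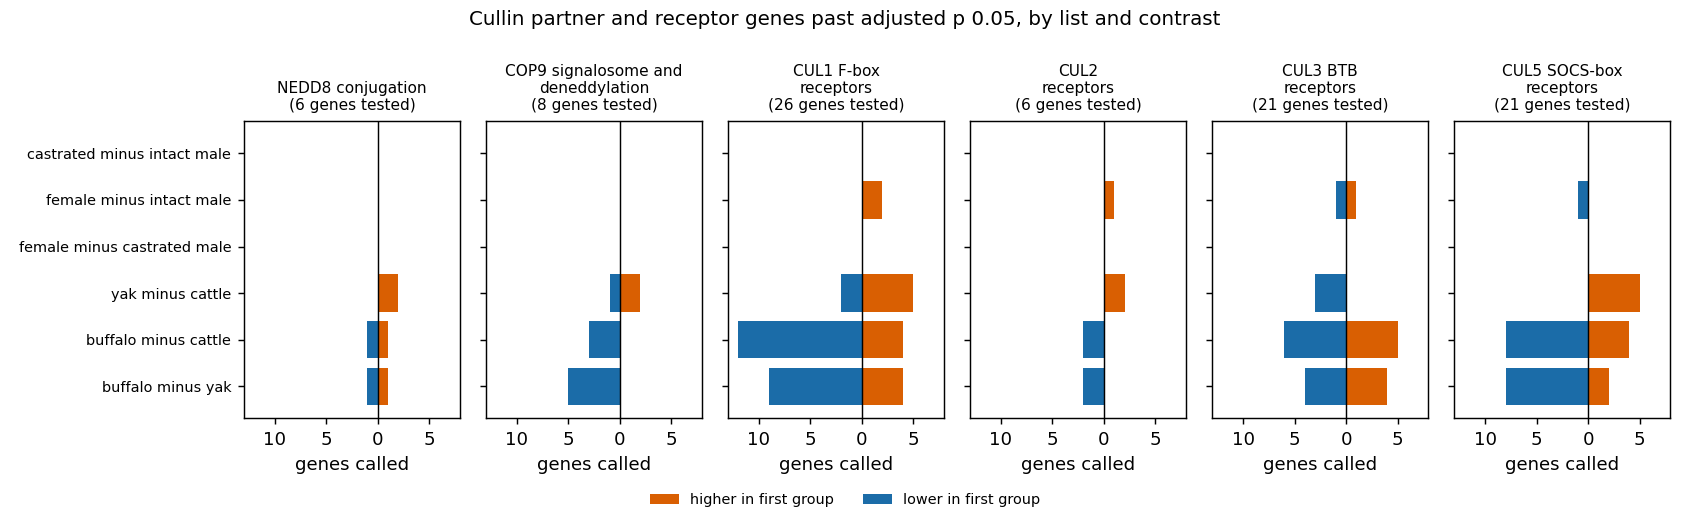
Number of partner and receptor genes with an adjusted p below 0.05 in limma (horizontal axis, genes higher in the first group to the right and lower to the left) in 6 lists and 6 contrasts. No bar stands in castrated minus intact male or female minus castrated male. In buffalo minus cattle 12 of 26 F-box genes and 8 of 21 SOCS-box genes were lower, where 28.4% of all probe sets were called lower.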

How the data were processed

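Total RNA from each muscle was hybridised to an Affymetrix bovine array, per the labels' protocols. The authors deposited 1 intensity per probe set and array, on a linear scale. The sources used here do not give how it was summarised or normalised. The 112 control probe sets were set aside, 16 was added before log2, and no further normalisation was made. Testing covered the 14409 of 24016 probe sets whose mean exceeded the 40th percentile. Symbols came from the platform annotation: 13292 probe sets had 1 symbol, 86 had several and 10638 were not listed. Of them 13263 matched a current gene by Entrez identifier and 0 symbols changed.

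Linear models used limma 3.58.1 under R 4.3.3 (empirical Bayes with a trend, two-sided, Benjamini-Hochberg adjustment over all probe sets tested), on the 9 cattle arrays for cattle contrasts and on all 15 for species. With 3 arrays against 3 an exact permutation test cannot go below 0.1. On simulated data of 14409 probe sets the fit recovered 71% of 2-fold changes in castrated minus intact male and 88.5% in yak minus cattle. Of its calls there 7.79% and 4.32% were wrong. In female minus castrated male it recovered 67%, and 5.63% of calls were wrong. The simulation changed 200 probe sets and drew independent noise for each. In the real data 4196 were called in yak minus cattle, so these rates need not hold there. In lists a gene is its brightest probe set. Named were all cullin probe sets and the shared parts of the ligases whatever their values, up to 4 called genes of each receptor list per contrast with the smallest p, and the 5 genes most like each cullin. The members and the lists were chosen with earlier results of these data known. Alternatives were another added value, quantile normalisation, other filters, no trend, other arrays in the fit, a replicate block and each array left out.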

Additional observations from a re-analysis of the deposited data

Results flagged for a closer look

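On the brightest probe set of 4 receptor genes yak and buffalo lay on opposite sides of all 9 cattle arrays, each past the threshold. The genes were picked for this, and the buffalo minus yak difference is the gap between those contrasts. That it passed in limma was therefore largely fixed by the choice and is no further support. FBXL20 was higher in yak (1.05) and lower in buffalo (-0.51) than in cattle, and buffalo minus yak was -1.555 (adjusted p = 3.49e-06). Its other 2 tested probe sets did not show this: in buffalo minus cattle one was called higher (0.47, adjusted p = 0.0105) and one had -0.01 (adjusted p = 0.948), and in buffalo minus yak they had -0.07 and -0.21 (adjusted p = 0.747 and 0.231). FBXL8 had 0.52 in yak and -0.79 in buffalo, and -1.305 between them (adjusted p = 1.46e-06). FBXO11 had 0.54 in yak and -0.48 in buffalo, and -1.023 between them (adjusted p = 4.28e-05). This probe set was dim, with group means of 51.3 in buffalo and 70.0 to 84.6 in cattle, below every array median (88.75 to 96.44). Its mean exceeded the filter only with the yak arrays counted, the group where it was high. KLHL28 went the other way, at -0.62 in yak and 1.07 in buffalo, with 1.697 between them (adjusted p = 1.7e-05). The cattle arrays are shared by both species contrasts, and RNA level and probe binding cannot be told apart.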

How the results depend on the processing

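Of 490 cullin fold changes under alternatives, 467 kept their direction and side of the threshold, 10 lost a call, 7 gained one and 6 changed sign. Leaving out 1 array, CUL2 castrated minus intact ran from -0.018 (without intact male 1) to 0.241; in female minus castrated the intermediate CUL1 probe set ran from -0.163 to 0.00032 and the brightest from -0.088 to 0.024 (both highest without castrated male 1), and CUL5 from -0.035 (without female 1; -0.022 without castrated male 2) to 0.062. Without the intact males the dimmest CUL1 probe set had -0.057 in buffalo minus cattle. With all 15 arrays in the fit 718 probe sets were called in castrated minus intact male, 1911 in female minus intact and 5 in female minus castrated, and with only the 6 arrays compared 37, 110 and 9, in place of 211, 792 and 3; cullin calls then were 4 with 15 arrays in female minus intact, and 1 with 6 arrays in each contrast against intact males, in place of 2. Female minus castrated had 0 calls with 1 added before log2 and 1 with the 60th percentile filter. Buffalo minus cattle had 11929 with no filter in place of 7400, where 24016 were tested. Leaving out 1 array gave 41 to 995 calls in castrated minus intact (995 without intact male 3, 51 without intact male 2), 77 to 2194 in female minus intact (2194 without intact male 3, 110 without intact male 2), 2 to 4 in female minus castrated and 2281 to 4643 in yak minus cattle (2281 without yak 1, 2514 without yak 2), and 1 to 2 cullin calls in each contrast against intact males; where a fit has fewer arrays the cause of a change was otherwise not tested. Quantile normalisation moved the share of higher calls in buffalo minus cattle from 44.8% to 56%. The labels do not say that replicate numbers pair the animals. Same-number deviations in cattle correlated at -0.115 to 0.137 (median 0.066, 3 of 9 above 0.1). Other-number ones correlated at -0.215 to 0.237 (median -0.004, 1 of 18 above 0.1). These values do not settle whether the numbers pair animals. With the replicate block 143, 642, 3, 3970, 7204 and 5884 probe sets were called in the 6 contrasts in place of 211, 792, 3, 4196, 7400 and 6086. Signal over background could not be judged, as no detection calls were used here.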
